A study of Mus musculus with 18 samples.

Results

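The comparison described here is the diet response of livers that lack AIM. It sets the 3 arrays of AIM-KO mice fed a high-fat diet (HFD) for 12 weeks against the 3 arrays of AIM-KO mice on normal chow, chosen by the genotype and diet of their labels, out of 18 arrays in all. Both groups are of the C57BL/6 background and carry the genotype AIM-/-, the loss of the gene Cd5l, so the controls lack AIM as well. As labelled they differ only in diet. The labels give neither the age nor the sex of the mice, nor how the allele was made, and time on HFD and age therefore cannot be told apart. The other arrays of the series include wild type livers (AIM+/+, same background) on chow and after 12 weeks, set beside the AIM-KO values below. The rest are both genotypes after 20 weeks. They served to estimate the spread between arrays and, with all other arrays, to choose the genes tested. Each group has 3 arrays called biological replicates, with no statement that each is a separate animal, so p-values measure the spread between these samples.

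AIM, the apoptosis inhibitor of macrophage, is a protein that tissue macrophages secrete into blood. It binds to circulating immunoglobulin M, and it can be taken up by fat-laden cells, where it lowers lipid droplet formation. A high-fat diet loads hepatocytes with triglyceride held in droplets. Fat-loaded livers commonly recruit monocytes from blood, activate the stellate cells that make collagen, and lose part of the hepatocyte-specific enzyme program, of which the sex-biased part is set by the pulses of growth hormone.

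Total liver RNA was hybridised to Affymetrix Mouse Genome 430 2.0 arrays, on which a gene is read by 1 or more sets of short probes, and the deposited values are linear intensities. A gene is called here when limma's adjusted p was under 0.05, and changes are given as log2 of 12 weeks over chow ± SE with n = 3 arrays in each group. Median intensities of the 6 arrays were 15.0 to 18.1, array to array correlations were 0.951 to 0.973 within and 0.942 to 0.955 between the diets, and the ratio of 3' to 5' actin signal, which rises as RNA degrades, was 2.25 to 2.65 on chow and 2.5 to 3.06 after HFD. With 3 arrays a group, the number of arrays sets the precision. Cd5l read 11.7, 4.0 and 12.5 on the AIM-KO chow arrays and 10.7, 6.1 and 16 on the AIM-KO HFD arrays, against 703, 781 and 754 on WT chow, and did not pass the test between the AIM-KO groups (0.18 ± 0.35, adjusted p = 0.79). The 4 tested genes of the Y chromosome and X inactivation were not called, with a median change of -0.07, and Xist, the transcript of the inactive X of females, read 13.8 to 20.5 on the 6 arrays, near their medians. The 20 week arrays, which enter the estimate of spread, were not alike in those 4 genes: relative to AIM-KO chow their median was -4.50, -3.84 and -3.32 on the AIM-KO arrays and 0.16, -3.89 and -0.24 on the WT arrays. Female-biased genes had medians of 2.61, 2.82 and 2.80 on the AIM-KO and 0.87, 2.80 and 0.51 on the WT arrays of 20 weeks. The unevenness of that WT group enters the SE of the sex-biased genes given below. Without the 20 week groups AIM-KO had 2570 calls, 1583 higher and 987 lower, and the sex-biased genes named below were called in AIM-KO as before.

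Of 14694 genes tested, 2645 were called in AIM-KO (18%), 1652 higher (11.2%) and 993 lower (6.76%). Among called genes the rises were the larger changes. On the log2 scale 734 rose by 1 or more and 119 by 2 or more, whereas 182 fell by at least 1 and 30 by at least 2. The median called rise was 0.93 and the median called fall was -0.56, while the median over all genes was 0.04. The direction of calls went with brightness. Of 6666 genes with a mean intensity under 50, 524 were called higher and 68 lower. Of 123 genes over 5000, 1 was called higher and 62 lower. Quantile normalization gave 392 higher and 100 lower in the dim range, and 8 and 19 in the bright range. Arrays of the 2 diets did not overlap for 2986 genes in the higher direction (20.3%) and 2118 in the lower (14.4%), and 2573 genes were both called and without overlap (17.5%). The count of calls was 1696 without AIM-KO HFD replicate 1 and 1754 without replicate 2. A lower limit of 1.5-fold on the change itself left 281 calls, 222 higher and 59 lower.

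**Figure D1:**
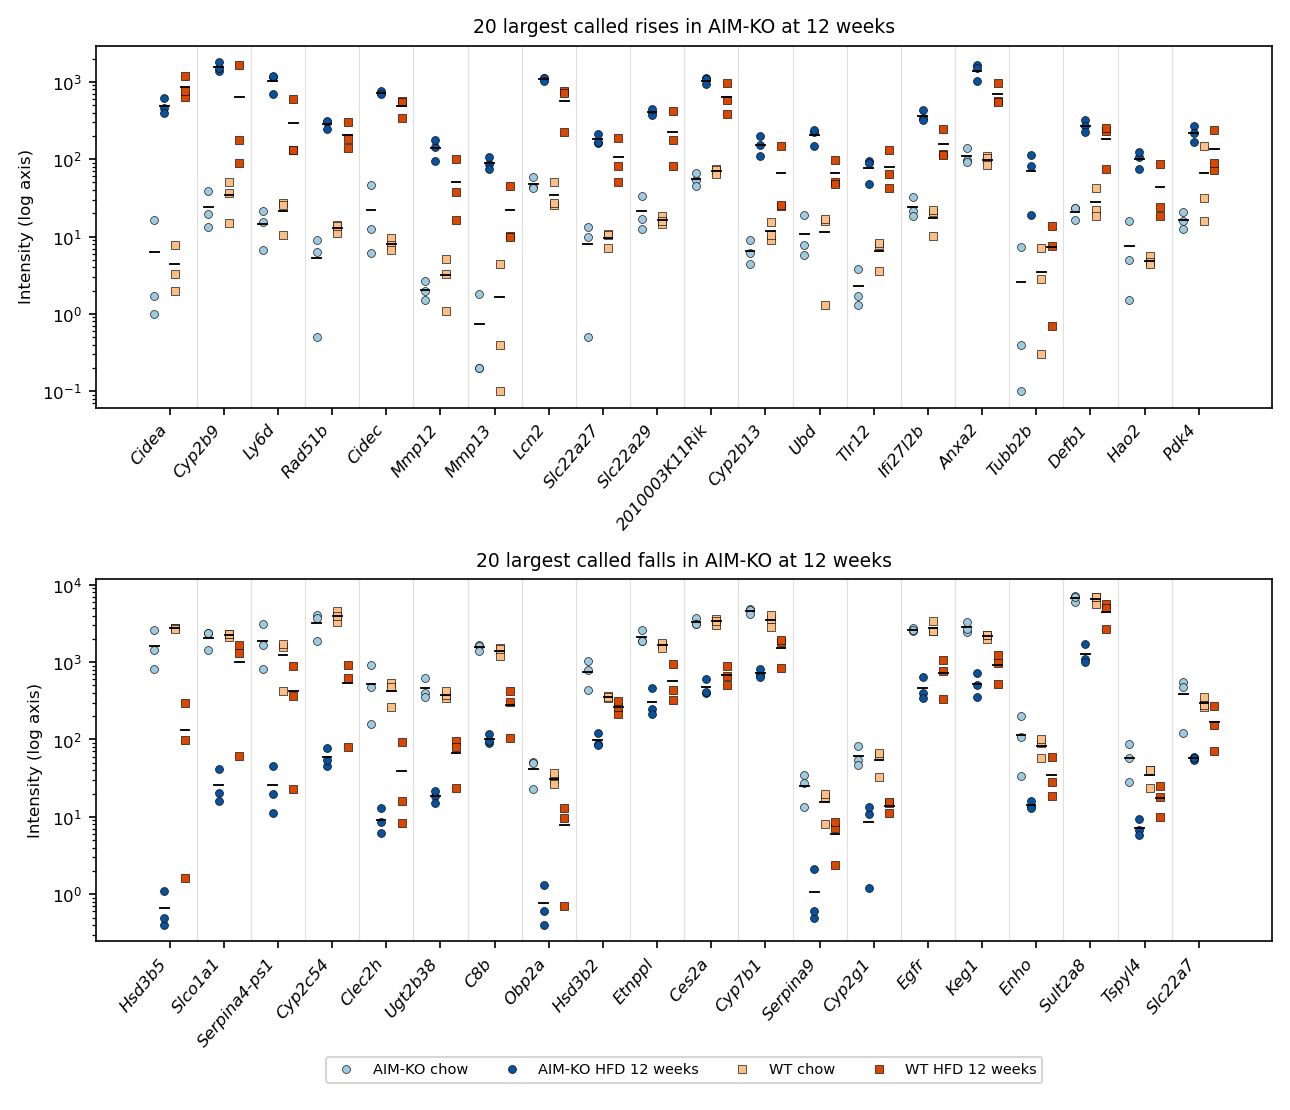
Intensity (log axis) of the 20 largest called rises (top) and 20 largest called falls (bottom) on each AIM-KO (circles) and WT (squares) array on chow (pale) and after 12 weeks of HFD (dark), with the group mean as a bar. All 40 were chosen for AIM-KO arrays that do not overlap between the diets, and for Hsd3b5 the WT HFD arrays run from 1.6 to 294 where the AIM-KO HFD arrays run from 0.4 to 1.1.

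Genes of lipid storage were among the largest rises. Of 19 tested genes of droplet coats and lipases, 12 rose and none fell, with a median change of 1.0. Cidea, whose product drives the fusion of lipid droplets, read 1.0, 1.7 and 16.3 on the chow arrays and 617, 456 and 396 after HFD (6.01 ± 0.76, adjusted p = 3.2e-05). Its relative Cidec read 12.4, 6.1 and 46.9 on chow and 717, 772 and 694 on HFD (5.23 ± 0.43, adjusted p = 4.7e-07). Both genes were chosen for arrays that do not overlap between the diets, and chow replicate 3 was the highest of the 3 controls. The coat protein genes Plin4, from 27.8, 21.4 and 64.2 to 296, 275 and 292, and Plin2, from 1919, 2014 and 2754 to 5434, 5384 and 4831, rose by 2.96 ± 0.32 and 1.24 ± 0.14. Mgll, the lipase that ends triglyceride breakdown, rose by 1.21 ± 0.28, from 377, 881 and 1134 to 1595, 1623 and 1835. Among 8 tested adipocyte markers 4 were higher and 1 lower (median 1.09). After quantile normalization 4 were higher and 0 lower. The summed intensity of the 8 was 11845 to 13696 on chow arrays and 11597 to 12106 on HFD arrays. Cidea and Cidec, at most 617 and 772 on the HFD arrays, were a small part of that sum, so it does not follow their rise. The defining markers Adipoq and Lep were too dim on the arrays to be tested, and the part of fat cells was not tested.

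Fatty acid uptake and triglyceride synthesis rose with them. Among 15 tested genes of uptake and binding, 8 were called higher and 1 lower (median 0.53), and among 16 of triglyceride synthesis and export, 5 higher and none lower (median 0.38). The fatty acid translocase gene Cd36 read 195, 212 and 872 on chow and 1682, 1908 and 1889 on HFD, and chow replicate 3 again stood above the other two controls (2.45 ± 0.35, adjusted p = 0.00012). Vldlr, the receptor that takes up triglyceride-rich particles, rose from 33.5, 39.2 and 30.3 to 211, 246 and 213, with little spread in either group (2.60 ± 0.17, adjusted p = 4.9e-08). The nuclear receptor gene Pparg, a driver of fat storage programs, rose by 1.36 ± 0.25 and the fatty acid carrier gene Fabp4 by 2.75 ± 0.29. For synthesis, Mogat1, which adds a fatty acid to monoacylglycerol, went from 14.4, 17 and 68 to 279, 284 and 274 (3.26 ± 0.38, adjusted p = 1.2e-05). Gpat3, an acyltransferase of the first step, rose by 1.90 ± 0.27, and Mttp, which loads lipid onto secreted particles, by 0.67 ± 0.11, from 815, 1025 and 1200.0 to 1549, 1588 and 1661.

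New fatty acid synthesis and fatty acid oxidation both held more rises than falls. In the synthesis and desaturation list 12 of 23 tested genes were higher and 3 lower (median 0.72). Acacb and Acaca, the carboxylases that make malonyl-CoA, rose by 2.38 ± 0.26 and 1.43 ± 0.23, Acacb from 72.9, 72.1 and 116 to 415, 432 and 529. Other probe sets of Acaca went down to -0.35. The desaturase gene Scd2 read 134, 27.8 and 28.3 on chow, where replicate 1 was the highest, and 341, 445 and 208 on HFD (2.64 ± 0.55, adjusted p = 0.0024), while another probe set of the gene read -0.62. Insig2, which retains the sterol sensor in the endoplasmic reticulum, rose by 1.67 ± 0.25, from 854, 889.5 and 722 to 2898, 2512 and 2443. Of 24 genes of oxidation and of the receptor PPAR alpha, 10 were higher and 1 lower (median 0.33). Pdk4, the kinase that shuts pyruvate out of the mitochondrion, rose from 12.7, 16 and 21 to 265, 219 and 169 (3.47 ± 0.52, adjusted p = 0.00016). Acot2, a mitochondrial thioesterase, rose by 2.30 ± 0.26, the pantetheinase gene Vnn1 by 2.08 ± 0.35, and Fgf21, a hormone released by the liver in metabolic stress, from 22.7, 12.1 and 22.4 to 89.3, 83.7 and 94.6 (2.09 ± 0.24, adjusted p = 1.2e-05). Cyp4a14, a fatty acid omega-hydroxylase, rose by 0.92 ± 0.22.

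Sterol and lipoprotein genes were mixed. Cholesterol synthesis and uptake had 5 of 20 tested genes higher and 3 lower (median 0.34). Hmgcs1, the entry enzyme of the mevalonate pathway, rose from 1980.1, 1505 and 1843 to 5426, 4739.7 and 3726 (1.37 ± 0.25, adjusted p = 0.00091), and the later enzymes Mvd and Hsd17b7 rose by 1.20 ± 0.25 and 0.88 ± 0.19. Among 14 apolipoproteins 2 were higher and 4 lower, with a median of -0.28 that turned to 0.045 after quantile normalization, when 1 was still lower. Apoa4, carried on triglyceride-rich particles, read 678, 635 and 842 on chow and 6398, 5864 and 6277 on HFD, a narrow spread in both groups (3.11 ± 0.15, adjusted p = 3.5e-10). Apoc2, the activator of lipoprotein lipase, rose from 3104, 2650.1 and 2794 to 5853, 5637 and 5776 (1.02 ± 0.10, adjusted p = 4.4e-06). Apom, carried on high-density particles, fell from 3308, 2691 and 2570.2 to 1309.7, 1184 and 1105 (-1.24 ± 0.14, adjusted p = 1.1e-05).

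Genes that male livers express more than female livers had the lowest median of all lists. Of 16 tested male-biased genes 12 fell and none rose (median -1.56). Hsd3b5, a steroid dehydrogenase, read 1449, 2572 and 808 on chow and 0.4, 1.1 and 0.5 on HFD (-8.52 ± 0.88, adjusted p = 5.2e-06), so that every HFD array was at the floor of the scale. Slco1a1, an organic anion uptake transporter, went from 1445, 2354 and 2387 to 41.8, 15.9 and 20.5 (-6.20 ± 0.97, adjusted p = 0.00024). The complement gene C8b fell from 1649.8, 1628 and 1387 to 89.9, 96.4 and 118 (-3.90 ± 0.31, adjusted p = 4.6e-07) and the glucuronidation gene Ugt2b38 from 397, 358 and 624 to 18.8, 21.6 and 15.2 (-4.37 ± 0.36, adjusted p = 4.8e-07). All of these genes were chosen for AIM-KO arrays that do not overlap between the diets. Probe sets of the Hsd3b, Ugt2b, Sult2a, Cyp2b, Cyp2c, Slc22a, Saa, Orm and class II families may read close relatives, so which member carried the signal is uncertain.

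Female-biased genes went the other way, with 6 of 14 higher and 1 lower (median 0.81). Cyp2b9, a cytochrome P450 of female liver, read 13.4, 19.5 and 39.1 on chow and 1363, 1516 and 1806 on HFD (5.94 ± 0.70, adjusted p = 1.6e-05). Its neighbour in sequence Cyp2b13 rose from 9.0, 4.4 and 6.1 to 109, 199.6 and 154 (3.99 ± 0.79, adjusted p = 0.0017), and the peroxisomal oxidase gene Hao2 from 5.0, 1.5 and 16.1 to 75.7, 107 and 122 (3.49 ± 0.65, adjusted p = 0.0011). Cyp17a1, a steroid hydroxylase, rose by 2.86 ± 0.43. Of the growth hormone and IGF axis, 3 of 22 genes were higher and 4 lower (median -0.16), where all genes had 11.2% higher and 6.76% lower. The receptor gene Ghr fell from 5517, 6399.8 and 5715 to 3661, 3829 and 4037 (-0.61 ± 0.11, adjusted p = 0.00098) and the binding protein gene Igfbp2 from 3305, 1911 and 1169 to 691, 748 and 899.9 (-1.33 ± 0.29, adjusted p = 0.0036), while Stat5a, a transducer of the hormone's signal, rose by 0.89 ± 0.16.

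Enzymes that clear drugs, toxins and bile acids were lower in greater number. Of 30 cytochromes P450 of families 1 to 3, 18 fell and 4 rose (median -0.59). Cyp2c54 read 1847, 4114 and 3731 on chow and 76.5, 45.5 and 54.5 on HFD (-5.65 ± 0.65, adjusted p = 1.2e-05). Cyp1a2, which metabolises caffeine, fell from 3255, 5027 and 3680.5 to 1040.2, 944 and 979.5 (-1.99 ± 0.19, adjusted p = 2.5e-06) and the arachidonate epoxygenase Cyp2c23 by 1.92 ± 0.20 on the log2 scale. Of 30 conjugating enzymes 15 fell and 4 rose (median -0.35), and 10 were lower after quantile normalization. The sulfotransferase genes Sult2a8, from 5907, 7207 and 6965 to 1083, 999 and 1736, and Sult5a1, from 102, 220.0 and 169 to 29.9, 25.7 and 39.3, changed by -2.43 ± 0.23 and -2.21 ± 0.31. The glutathione transferase gene Gstm3 was an exception, from 924, 689 and 637 to 2529, 2463 and 2129 (1.67 ± 0.32, adjusted p = 0.0013). Ces2a, a carboxylesterase that no list held, fell from 3726, 3095 and 3080.1 to 395, 412 and 608 (-2.82 ± 0.23, adjusted p = 4.6e-07).

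In bile acid synthesis and transport, 8 of 21 genes fell and 3 rose (median -0.41). Cyp7b1, of the alternative synthesis route, read 4872, 4781 and 4180.0 on chow and 689.6, 643 and 812 on HFD (-2.69 ± 0.25, adjusted p = 1.9e-06). Cyp27a1, which starts that route, fell by 0.90 ± 0.17 on the log2 scale, and Slc10a1, the uptake transporter of conjugated bile acids, went from 3036, 4562 and 5137 to 1617, 1541 and 2216 (-1.23 ± 0.24, adjusted p = 0.0016). The phospholipid exporter gene Abcb4 rose instead, from 957, 960.4 and 1182 to 2151, 2009.6 and 1813 (0.95 ± 0.13, adjusted p = 0.00010).

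**Figure D2:**
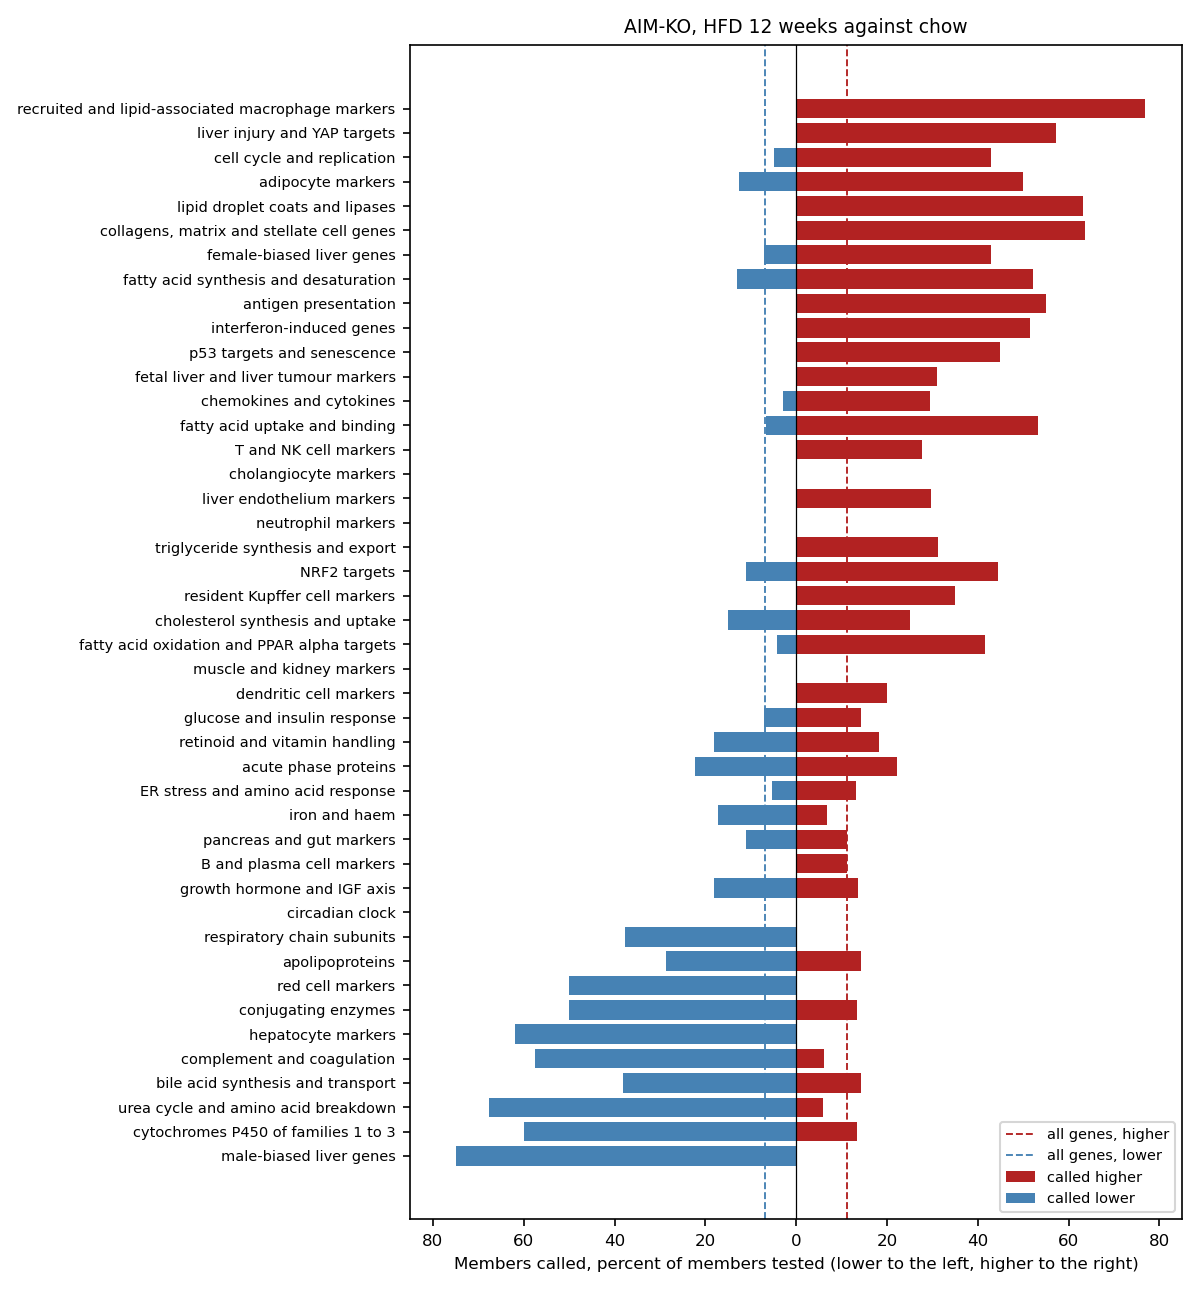
Members called lower (blue, to the left) and higher (red, to the right) in AIM-KO livers, as percent of the members tested, for each gene list in order of its median change; dashed lines give the share over all genes, 6.76% lower and 11.2% higher. Recruited macrophage markers (20 of 26) extend farthest to the higher side and male-biased genes (12 of 16) to the lower side.

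Genes of other hepatocyte tasks were lower by smaller amounts. In the urea cycle and amino acid breakdown 23 of 34 tested genes fell and 2 rose (median -0.54). Cth, which makes cysteine, fell from 6513, 5519 and 5147 to 2052, 2002 and 2634 (-1.36 ± 0.14, adjusted p = 5.8e-06), the histidase gene Hal from 2857, 2459 and 1158 to 562, 494 and 860.0 (-1.69 ± 0.28, adjusted p = 0.00040) and the argininosuccinate lyase gene Asl from 2035, 1999.6 and 2348 to 758, 721 and 1234 (-1.27 ± 0.26, adjusted p = 0.0024). Of 33 complement and coagulation genes 19 fell and 2 rose (median -0.37). The coagulation factor gene F11 read 819, 956 and 467 on chow and 203, 202 and 201 on HFD (-1.81 ± 0.34, adjusted p = 0.0012), F7 fell by 1.11 ± 0.19, and Masp1, a protease of the lectin pathway, by 1.06 ± 0.15 on the log2 scale. Of 21 hepatocyte markers 13 fell and none rose (median -0.36), among them the transcription factor gene Hnf4a, from 2573, 2513 and 2779 to 1781, 1561 and 1968 (-0.57 ± 0.12, adjusted p = 0.0030, with another probe set at 0.12), and the urea cycle gene Cps1, from 8765, 8956 and 9219.8 to 4622, 4507 and 5902 (-0.85 ± 0.14, adjusted p = 0.00027). Of 45 respiratory chain subunits 17 fell and none rose (median -0.25), with Sdhb at -0.52 ± 0.10 and Ndufs3 at -0.44 ± 0.09.

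These small falls moved with the brightness of the genes. The 123 genes with a mean intensity over 5000 had a median change of -0.31, with 1 called higher and 62 lower, and the 6666 genes under 50 had a median of 0.12, with 524 higher and 68 lower. Quantile normalization took the brightest genes to -0.00, with 8 higher and 19 lower. Under it the lower calls went from 13 to 6 among hepatocyte markers (median -0.08), from 19 to 11 among complement and coagulation genes (-0.15) and from 17 to 7 among respiratory chain subunits (-0.10). The urea cycle and amino acid list had 20 lower calls (-0.41) and the male-biased list 11 (-1.55). Albumin, the most familiar hepatocyte product, read 7809, 8309 and 8683 on chow and 6415, 6263 and 6139 on HFD and did not pass the test (-0.40 ± 0.14, adjusted p = 0.059, or 0.0276 without the 20 week groups). The summed intensity of the 21 hepatocyte markers was 134949 to 141981 on chow arrays and 97640.4 to 106097 on HFD arrays. In whole liver, fewer cells of a type and less RNA per cell cannot be told apart, and the part of brightness in these falls was not tested.

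**Figure D3:**
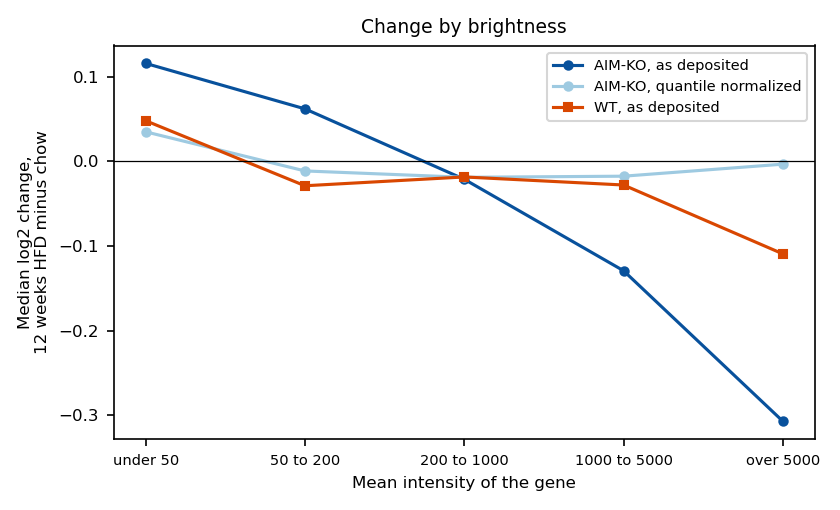
Median log2 change over genes in 5 ranges of mean intensity, for AIM-KO as deposited (dark blue), AIM-KO after quantile normalization (pale blue) and WT as deposited (orange), each 12 weeks of HFD over chow. The AIM-KO line runs from 0.12 in the dimmest range to -0.31 in the brightest, and after quantile normalization it lies between -0.02 and 0.03.

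Acute phase proteins split, and of 27 tested 6 rose and 6 fell (median 0.05, or -0.11 without HFD replicate 3). Lcn2, an iron-binding protein of innate defence, read 58.9, 43.2 and 42.6 on chow and 1114, 1131 and 1028 on HFD (4.42 ± 0.40, adjusted p = 1.4e-06). The serum amyloid gene Saa2 rose from 284, 119 and 281 to 1576, 1236 and 1792 (2.82 ± 0.42, adjusted p = 0.00017) and the orosomucoid gene Orm2 from 137, 182 and 199 to 854, 952 and 913 (2.39 ± 0.35, adjusted p = 0.00015), in each case with all HFD arrays above all chow arrays. Hamp, which encodes the iron hormone hepcidin, fell from 7437, 6813 and 5752 to 1745, 1828 and 4532 (-1.44 ± 0.31, adjusted p = 0.0030). Its upstream co-receptor gene Hjv, of the iron list, rose by 1.01 ± 0.16, and Tfr2, a sensor of transferrin, changed by -0.45 ± 0.10. In that iron and haem list 2 of 29 genes were higher and 5 lower (median -0.04), where all genes had 11.2% higher and 6.76% lower.

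Macrophage genes rose in AIM-KO livers. For recruited and lipid-associated macrophages 20 of 26 tested markers were higher and none lower (median 1.23), and in the list for resident Kupffer cells 7 of 20 and none (median 0.35). Quantile normalization gave 6 higher and 1 lower in the Kupffer cell list. The difference between these lists was not tested. Mmp12, the macrophage elastase, read 2.0, 1.5 and 2.7 on chow and 143, 176 and 96 on HFD (4.69 ± 0.43, adjusted p = 1.5e-06). Gpnmb, a lysosomal glycoprotein of lipid-laden macrophages, went from 10, 1.1 and 4.9 to 74.7, 98.4 and 54.8 (3.30 ± 0.59, adjusted p = 0.00078), and Lgals3, a galectin, from 86.1, 65.4 and 77 to 662, 623 and 436 (2.84 ± 0.37, adjusted p = 4.6e-05). The monocyte receptor gene Ccr2 rose from 16.3, 15.4 and 11.4 to 95.7, 63.1 and 44.2 (1.95 ± 0.36, adjusted p = 0.0011) and the actin-capping gene Capg by 2.20 ± 0.25. On the chow arrays Mmp12, Gpnmb and Capg were below the median intensity of any array, so their baseline is poorly measured. Trem2, a lipid receptor often used to define these macrophages, read 8.5, 22 and 10.8 and 10.2, 5.4 and 12.9, also near the array medians, and did not pass the test (-0.38 ± 0.45, adjusted p = 0.64).

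The genes listed for Kupffer cells are not all confined to them. Those of complement C1q rose: C1qa from 343, 268 and 286 to 681, 709.6 and 760.2 (1.26 ± 0.20, adjusted p = 0.00023), C1qb by 1.42 ± 0.17 and C1qc by 0.98 ± 0.18. The growth factor receptor gene Csf1r, shared by all macrophages, rose from 1190.1, 999.9 and 1159 to 1821, 1756 and 2182 (0.78 ± 0.15, adjusted p = 0.0016). Clec4f, which defines Kupffer cells, read 398, 336 and 395 on chow and 469.7, 509.7 and 714 on HFD (0.56 ± 0.17, adjusted p = 0.031, not called without AIM-KO chow replicate 2 (adjusted p = 0.12) or without AIM-KO HFD replicate 2 (adjusted p = 0.050) or without AIM-KO HFD replicate 3 (adjusted p = 0.17)). Timd4, a marker of long-lived resident cells, read 39.5, 35.6 and 36.8 and 14.4, 19 and 17.4, with no overlap and a change of -1.01 ± 0.36 that did not pass the test (adjusted p = 0.064, or 0.039 after quantile normalization and 0.00844 without the 20 week groups). Vsig4 of the same cells read 541, 509 and 646 and 491, 583 and 784, and the groups overlapped. The summed intensity of the 26 recruited markers was 4333.1 to 6085 on chow arrays and 9279 to 10198 on HFD arrays, and that of the 20 resident markers 5988 to 7585 and 7905 to 9418.

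Chemokines and cytokines had 10 of 34 tested genes higher and 1 lower (median 0.54). Ccl2, the main attractant of monocytes, read 3.5, 7.2 and 0.8 on chow and 44.5, 46.9 and 37.1 on HFD (2.79 ± 0.57, adjusted p = 0.0020). Cxcl2, which attracts neutrophils, rose from 8.1, 9.9 and 0.5 to 43.3, 32.8 and 28.3 (2.18 ± 0.48, adjusted p = 0.0038), and Ccl6, made by myeloid cells, by 1.45 ± 0.18. No neutrophil marker was called among 10 tested (median 0.40), and the 10 summed to 115.2 to 152.1 on chow and 216.3 to 226 on HFD; S100a9, with the smallest p, read 15.8, 10.8 and 14.2 and 45.2, 43.1 and 39.5 (adjusted p = 0.055). Of 18 T and NK cell markers 5 were higher and none lower (median 0.46). Ccl5, a product of activated T and NK cells, rose from 37.6, 23.7 and 16.6 to 118, 60.4 and 91.2 (1.68 ± 0.33, adjusted p = 0.0016), the granzyme gene Gzmk from 6.2, 2.5 and 8.6 to 21, 21.4 and 22 (1.51 ± 0.36, adjusted p = 0.0062) and the receptor gene Klrd1 by 1.10 ± 0.25. Cd3e, part of the T cell receptor, read 3.0, 4.2 and 3.9 and 4.2, 6.7 and 3.1, under every array's median. Of 9 B and plasma cell markers the heavy chain gene Ighm alone was called, from 54.1, 54.1 and 192 to 349, 347 and 333 (2.00 ± 0.40, adjusted p = 0.0019), and its 7 probe sets ranged from -0.96 to 2.00. Of 10 dendritic cell markers 2 were higher, led by the activation marker Cd83, from 13.4, 11.9 and 8.1 to 58.5, 60.4 and 41.2 (1.97 ± 0.29, adjusted p = 0.00016). Over all genes 11.2% were called higher.

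Antigen presentation followed, with 11 of 20 tested genes higher and none lower (median 0.63). The class II gene H2-Aa read 956, 464 and 850.5 on chow and 2471, 2238 and 2120.1 on HFD (1.65 ± 0.30, adjusted p = 0.00078), and H2-Eb1 and H2-Ab1 rose by 1.66 ± 0.30 and 1.36 ± 0.23. Cd74, the chaperone of class II molecules, rose from 77.1, 63.4 and 84.3 to 152, 174 and 180.0 (1.14 ± 0.17, adjusted p = 0.00018). All 3 HFD arrays were above all 3 chow arrays for each of these genes, which were picked among called genes. Of all 2645 called genes 2573 were without overlap.

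Interferon-induced genes rose in AIM-KO livers, with 18 of 35 tested members higher and none lower (median 0.61), and the same counts after quantile normalization. Gbp2, a guanylate-binding protein of interferon gamma responses, read 49.5, 26.5 and 41.5 on chow and 185, 118 and 205 on HFD (2.03 ± 0.35, adjusted p = 0.00058). Trim30a, a restrainer of innate signalling, went from 68.1, 73.4 and 52.7 to 192, 210.2 and 194 (1.58 ± 0.17, adjusted p = 5.8e-06). Oasl2, a relative of the antiviral oligoadenylate synthetases, rose from 16, 14.5 and 12.9 to 52.2, 52.1 and 49.7 (1.62 ± 0.22, adjusted p = 5.7e-05), and Ifit2, which binds foreign RNA, from 37.8, 32.9 and 29.7 to 110.2, 116 and 90.4 (1.57 ± 0.22, adjusted p = 8.2e-05). The chemokine gene Cxcl10 rose by 1.33 ± 0.26, from 45.5, 32 and 41.5 to 97.4, 104 and 109, and the synthetase gene Oas1a from 71.7, 89.5 and 85.6 to 183, 232 and 195 (1.27 ± 0.22, adjusted p = 0.00059). HFD and chow arrays did not overlap for any of these 6 genes. They were picked among called genes, and 2573 of all 2645 called genes were without overlap.

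The promoters of 4 of these called genes are shown because they share the letters at which factors of the interferon pathway bind, the core of the interferon-stimulated response element, searched as GAAANNGAA on both strands from 250 bases before to 50 bases after the start of transcription. The sequences are from RefSeq (build GRCm38.p6), 5′ to 3′ on the gene's strand, and capitals mark the match, which reads as the reverse complement where it lies on the opposite strand. They lie at chr3:142620413-142620712 (+) for Gbp2, chr7:104465144-104465443 (-) for Trim30a, chr5:92348840-92349139 (-) for Cxcl10 and chr5:120907476-120907775 (-) for Oas1a, where 2 overlapping matches run together.
Gbp2: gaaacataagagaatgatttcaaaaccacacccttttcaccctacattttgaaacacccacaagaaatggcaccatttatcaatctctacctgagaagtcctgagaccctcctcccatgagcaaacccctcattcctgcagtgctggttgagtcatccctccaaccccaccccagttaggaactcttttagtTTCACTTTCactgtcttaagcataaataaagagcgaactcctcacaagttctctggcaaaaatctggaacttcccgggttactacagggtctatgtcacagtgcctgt
Trim30a: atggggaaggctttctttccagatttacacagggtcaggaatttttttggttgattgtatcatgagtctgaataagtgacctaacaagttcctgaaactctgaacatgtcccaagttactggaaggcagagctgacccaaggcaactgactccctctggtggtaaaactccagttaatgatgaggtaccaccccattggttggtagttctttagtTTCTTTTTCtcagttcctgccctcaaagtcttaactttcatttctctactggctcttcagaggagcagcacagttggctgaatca
Cxcl10: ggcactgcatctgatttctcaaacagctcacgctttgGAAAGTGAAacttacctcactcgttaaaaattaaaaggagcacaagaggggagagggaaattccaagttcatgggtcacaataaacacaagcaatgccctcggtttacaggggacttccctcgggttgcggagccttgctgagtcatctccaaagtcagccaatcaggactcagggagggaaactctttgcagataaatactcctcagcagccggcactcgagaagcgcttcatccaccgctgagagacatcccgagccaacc
Oas1a: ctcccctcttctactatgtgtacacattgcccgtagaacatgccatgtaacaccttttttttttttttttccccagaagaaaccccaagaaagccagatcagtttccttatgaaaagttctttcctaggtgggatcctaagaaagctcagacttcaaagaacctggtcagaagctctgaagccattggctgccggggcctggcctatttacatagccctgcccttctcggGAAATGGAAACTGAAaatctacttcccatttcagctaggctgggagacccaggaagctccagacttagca
Of the 18 called members 13 had a promoter entry, of which 8 held the motif, and of the 17 members not called 13 had one, of which 8 also held it. The share was 8.56% over all 32851 promoters of this length and 8.54% over those of the genes tested. Called and uncalled interferon genes with an entry thus held it in the same number. Oas1a was added to the named genes for its promoter after its values were seen.

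**Figure D4:**
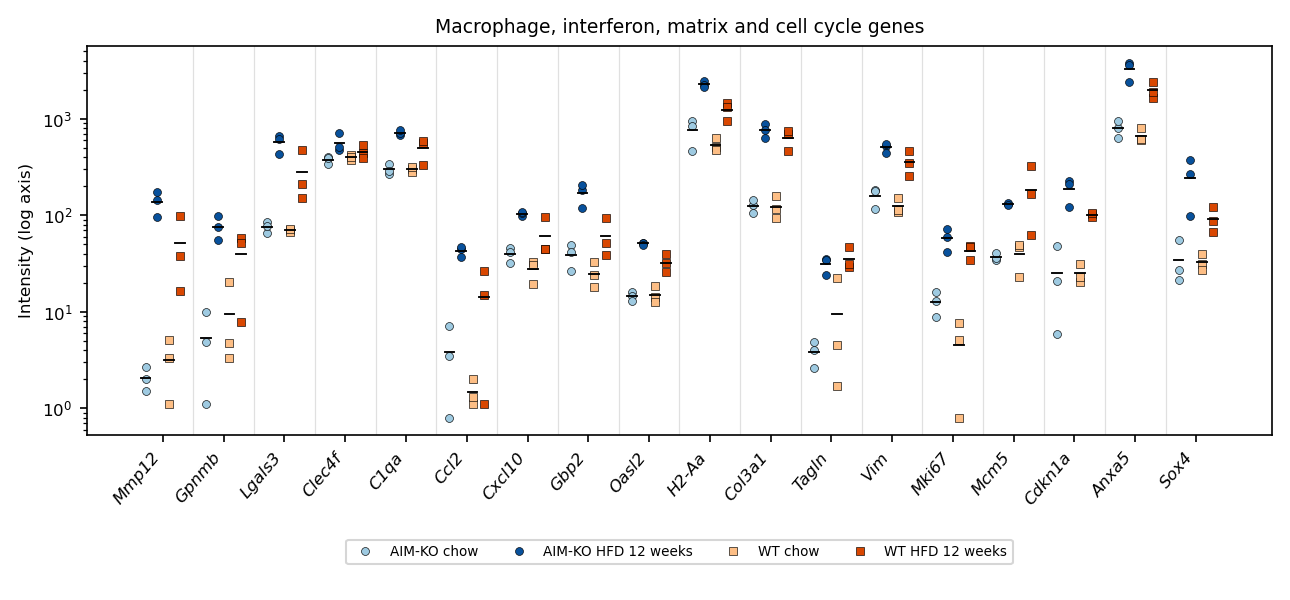
Intensity (log axis) of macrophage, chemokine, interferon, class II, matrix, cell cycle and injury genes on each AIM-KO (circles) and WT (squares) array on chow (pale) and after 12 weeks of HFD (dark), with the group mean as a bar. The AIM-KO HFD arrays lie above the AIM-KO chow arrays for every gene drawn, for example 143, 176 and 96 against 2.0, 1.5 and 2.7 for Mmp12.

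Scar-forming and stromal genes were higher. Of 44 collagens, matrix and stellate cell genes 28 rose and none fell (median 0.86). After quantile normalization 23 were higher and 0 lower (median 0.78). Col3a1, a fibrillar collagen, read 127, 106 and 145 on chow and 891, 770.3 and 636 on HFD (2.57 ± 0.25, adjusted p = 3.4e-06), and Col1a2 rose from 74.3, 57.4 and 78.4 to 302, 249.5 and 221 (1.83 ± 0.19, adjusted p = 5.6e-06). The collagenase gene Mmp13 went from 0.2, 0.2 and 1.8, at the floor of the scale, to 85.5, 106 and 75.5 (4.52 ± 0.55, adjusted p = 2.3e-05). Tagln, of contractile cells, rose from 4.9, 4.0 and 2.6 to 35.4, 23.8 and 34.8 (2.27 ± 0.42, adjusted p = 0.00093), and the filament gene Vim by 1.68 ± 0.21. HFD replicate 3 was the lowest of the 3 HFD arrays for Col3a1, Col1a2 and Mmp13.

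Of 28 genes of liver injury and of the growth regulator YAP, 16 rose and none fell (median 1.13). Anxa2, a membrane-binding annexin, read 98.3, 93.3 and 138 on chow and 1626, 1510.4 and 1014 on HFD (3.61 ± 0.32, adjusted p = 1.0e-06), and its relative Anxa5 rose by 2.02 ± 0.21, from 796, 631 and 949 to 3757, 3569 and 2391. Sox4, a transcription factor of progenitor cells, went from 55.4, 26.9 and 21.4 to 265, 372 and 99.2 (2.63 ± 0.38, adjusted p = 0.00013), and Tnfrsf12a, the receptor of the cytokine TWEAK, from 66.7, 36 and 87.7 to 262, 260.2 and 184 (1.90 ± 0.36, adjusted p = 0.0013). Again HFD replicate 3 was the lowest of its group in these genes, and another probe set of Sox4 read -0.20. None of 9 cholangiocyte markers was called (median 0.41). Krt19, which defines bile duct cells, read 7.9, 1.6 and 1.0 and 12.3, 13.3 and 6.3, under every array's median. Of 27 endothelial markers 8 rose and none fell (median 0.40), including Vcam1, an adhesion molecule for leukocytes, from 135, 88.3 and 173 to 485, 434 and 507 (1.87 ± 0.24, adjusted p = 3.4e-05), Lyve1 of sinusoids, by 1.39 ± 0.21, and Icam1, by 1.31 ± 0.22.

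Cell cycle genes rose, with 18 of 42 tested higher and 2 lower (median 1.10). Ccnd1, the cyclin that opens the cycle, read 317, 305 and 125 on chow and 771, 789 and 829 on HFD (1.78 ± 0.35, adjusted p = 0.0017). The proliferation marker gene Mki67 rose from 8.9, 16.1 and 13 to 71.6, 59.9 and 41.6 (1.93 ± 0.43, adjusted p = 0.0044) and the replication helicase gene Mcm5 from 34.7, 35.9 and 40.2 to 130.3, 134 and 128 (1.74 ± 0.43, adjusted p = 0.0089). Thymidine kinase Tk1 went the opposite way, from 176, 187 and 147 to 45.5, 51 and 48.7 (-1.74 ± 0.32, adjusted p = 0.0010). Alongside, 13 of 29 p53 target and senescence genes were higher and none lower (median 0.59). Cdkn1a, which encodes the cycle inhibitor p21, read 5.9, 20.9 and 48.5 on chow and 226, 122 and 209 on HFD (3.02 ± 0.47, adjusted p = 0.00022). The death-promoting gene Pmaip1 rose from 15, 3.9 and 6.0 to 34.6, 42 and 34.6 (1.91 ± 0.32, adjusted p = 0.00042), and Rad51b, of recombination repair, from 0.5, 6.3 and 9.1 to 306, 313 and 248 (5.24 ± 0.32, adjusted p = 1.4e-08). Ccnd1, which opens the cycle, and Cdkn1a, which encodes an inhibitor, thus both rose, while 22 of the 42 cell cycle genes were not called. Which cells carried these transcripts was not tested.

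Of 29 fetal liver and liver tumour markers 9 rose and none fell (median 0.55). Ly6d, a surface antigen seen in tumour-prone fatty livers, read 21.4, 6.6 and 15.4 on chow and 1169, 1179 and 694 on HFD (5.90 ± 0.52, adjusted p = 1.0e-06). Cd24a and Spink1 were named by the same rule, but their calls depended on an array: Cd24a at 1.65 ± 0.40, not called without AIM-KO HFD replicate 2 (adjusted p = 0.052) and Spink1 at 2.28 ± 0.60, not called without AIM-KO chow replicate 3 (adjusted p = 0.061) or without AIM-KO HFD replicate 1 (adjusted p = 0.052). The classical marker Afp read 49.5, 34 and 14 and 70.8, 62.6 and 32.2 and did not pass the test (adjusted p = 0.30).

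Targets of NRF2, the regulator of antioxidant defence, had 8 of 18 tested members higher and 2 lower (median 0.38), with 6 and 2 after quantile normalization. Srxn1, which repairs peroxiredoxins, rose from 199, 158 and 123 to 503, 466 and 345 (1.44 ± 0.26, adjusted p = 0.00067), Pgd, of the pentose phosphate pathway, from 541, 477 and 366 to 1413, 1247 and 1129 (1.46 ± 0.25, adjusted p = 0.00056) and the carbonyl reductase gene Cbr3 from 18.5, 15 and 29.1 to 102, 114 and 84.3 (2.13 ± 0.51, adjusted p = 0.0067). The core TGACNNNGC of the antioxidant response element was found in 3 of 8 called targets with a promoter entry and in 2 of 8 others. The shares were 12.4% of the promoters searched and 16.5% of those of the genes tested. In the same way TTTGAA, of cell cycle promoters, was in 7 of 14 called cell cycle genes and in 8 of 18 not called, against 17.9% and 14.9%.

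Other metabolic lists had medians near that of all genes, of which 11.2% were called higher and 6.76% lower. Glucose and insulin response had 4 of 28 genes higher and 2 lower (median 0.07, or -0.12 without chow replicate 1). The hexokinase gene Hk2, low in healthy liver, rose from 53, 23.8 and 39 to 154, 148 and 89.3 (1.70 ± 0.31, adjusted p = 0.00092), and Ppp1r3c, which steers glycogen synthesis, fell from 1033, 769.8 and 659 to 199, 139.7 and 439 (-1.79 ± 0.38, adjusted p = 0.0027). Of 38 genes of endoplasmic reticulum stress and the amino acid response 5 rose and 2 fell (median -0.00, or 0.07 after quantile normalization). Atf3, a stress transcription factor, rose from 18.9, 8.2 and 28 to 77, 79.3 and 72.3 (1.99 ± 0.43, adjusted p = 0.0032), while Xbp1, of the unfolded protein response, fell from 4443, 3969.9 and 4488 to 2703, 2948 and 2864 (-0.60 ± 0.13, adjusted p = 0.0033). In retinoid and vitamin handling 4 of 22 rose and 4 fell (median 0.07). Cyp26a1, which breaks down retinoic acid, read 109, 206 and 121 on chow and 32.3, 36.1 and 32.8 on HFD (-1.95 ± 0.32, adjusted p = 0.00036), and Lrat, which esterifies retinol for storage, rose by 1.12 ± 0.19. No gene of the circadian clock was called among 20 tested (median -0.25), of which Bhlhe40 had the smallest p (0.46 ± 0.16, adjusted p = 0.059, or 0.042 after quantile normalization).

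**Figure D5:**
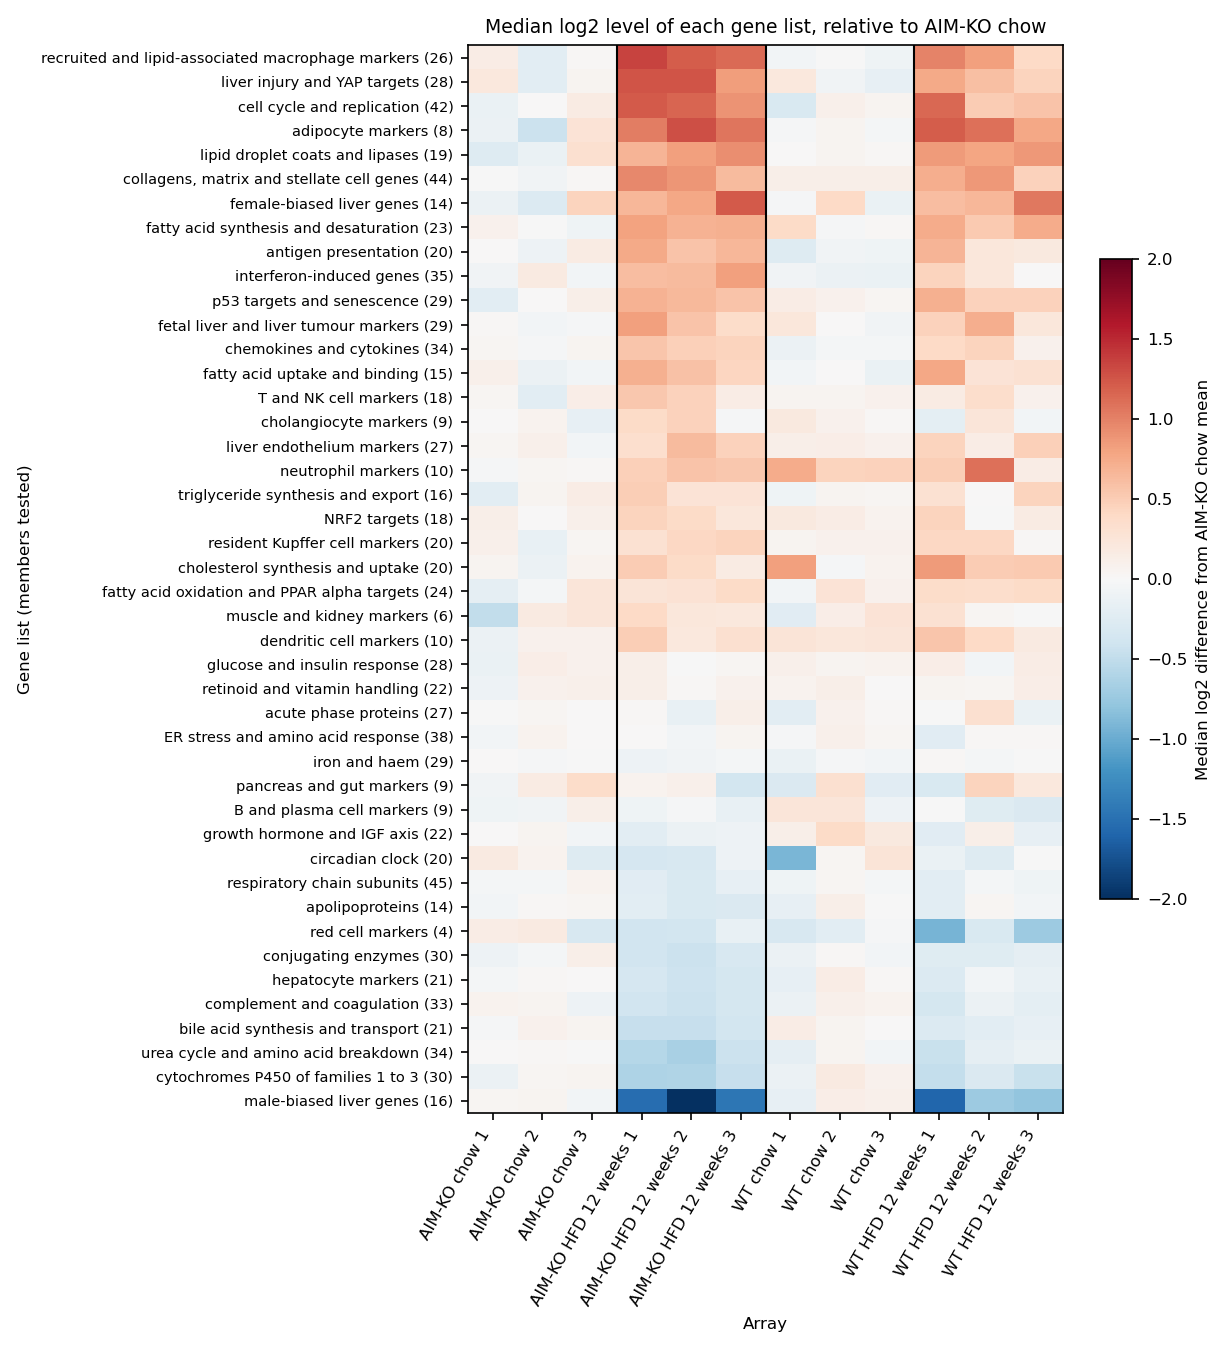
Median log2 level of each gene list on each array, relative to the mean of the 3 AIM-KO chow arrays (colour, held at -2 and 2 beyond them), with lists in order of their AIM-KO change and the members tested in brackets. In the male-biased row the AIM-KO HFD arrays are at -1.52, -2.08 and -1.45, WT HFD replicate 1 is at -1.59 and the other WT HFD arrays are at -0.72 and -0.79.

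Set beside wild type livers fed the same way, AIM-KO livers had more called genes, 2645 against 753 (5.12%; 514 higher, 3.5%, and 239 lower, 1.63%). Of the AIM-KO calls 590 were also called in WT in the same direction and none in the opposite direction. The ratio of 3' to 5' actin signal was 2.52 to 3.79 on the WT HFD arrays (median 2.69), against 2.5 to 3.06 on the AIM-KO HFD arrays. With that ratio as a covariate 2707 genes were called in AIM-KO and 810 in WT. These counts do not test the difference. That test, of the AIM-KO diet effect minus the WT diet effect, called 1 of 14694 genes (0.00681%), and 1386 genes had an unadjusted p under 0.05 (9.43%). The median difference over all genes was 0.05.

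The called gene was Hsd3b2, a male-biased relative of Hsd3b5. It read 791, 1026 and 436 on AIM-KO chow and 86.8, 85 and 122 on AIM-KO HFD, against 349, 368 and 356 on WT chow and 210.4, 265 and 316 on WT HFD. The AIM-KO change was -2.83 ± 0.24 (adjusted p = 6.6e-07), the WT change was -0.45 ± 0.24 (adjusted p = 0.32), and the difference was -2.38 ± 0.34 (adjusted p = 0.020). The AIM-KO HFD arrays lay below all WT arrays, and the AIM-KO chow arrays lay above all WT arrays, though AIM-KO and WT on chow did not pass the test (0.98 ± 0.24, adjusted p = 0.26). The difference was called in 6 of 12 fits that left out 1 array, with adjusted p from 0.00015 without AIM-KO chow replicate 3 to 0.112 without WT HFD replicate 3. It was not called without any of the WT chow arrays (0.0575, 0.0804 and 0.0878) or without AIM-KO HFD replicate 1 or 2 (0.111 each), nor with only the groups compared in the fit (0.0682).

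The WT HFD arrays were not alike in some sex-biased genes, and the cause was not tested. Their medians over the 4 tested genes of the Y chromosome and X inactivation were close, at -0.16, -0.13 and -0.10 relative to AIM-KO chow. Cyp2b9 read 1651, 89.8 and 176 on WT HFD against 1363, 1516 and 1806 in AIM-KO, and Slco1a1 read 61.5, 1663 and 1323 against 41.8, 15.9 and 20.5. WT HFD replicate 1 lay near the AIM-KO HFD arrays in both genes, and the other two stood apart. Without that array the difference called 23 genes, and WT itself 334 in place of 753. The array was singled out for its values in sex-biased genes, so larger differences in such genes without it follow from its removal and are given as a description. Of the 23, list members picked here after their values were seen were Hsd3b5 (-4.52), C8b (-1.96), Sult2a8 (-2.13), Ugt2b1 (-1.25), Cyp7b1 (-1.81) and Ugt2b38 (-2.29), all lower after HFD in AIM-KO by more than in the remaining WT arrays. Higher by more were Cyp2b9 (4.02), Vldlr (1.39), Ly6d (3.34) and the interferon gene Ifit3 (1.42). With all arrays the same differences were -2.81 ± 1.25 for Hsd3b5 (adjusted p = 0.50), 2.79 ± 0.99 for Cyp2b9 (adjusted p = 0.39) and 1.17 ± 0.24 for Vldlr (adjusted p = 0.17), none called. These SE include the uneven WT group of 20 weeks. Without the 20 week groups, and with every WT HFD array kept, the difference called 0 genes.

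Genes that led the AIM-KO response were measured in WT as well. They were picked for their change in AIM-KO, a choice that favours smaller changes in WT. Cidea read 7.8, 2.0 and 3.3 on WT chow and 629, 758 and 1186 on WT HFD, a change of 6.83 ± 0.76 against 6.01 ± 0.76 in AIM-KO, and every WT HFD array lay above every AIM-KO HFD array. Lcn2 read 769.9, 716 and 222 on WT HFD, all below its lowest AIM-KO HFD array, and Mmp12 read 99.4, 16.4 and 37.9, with replicate 1 above the lowest of AIM-KO. Ccl2 read 26.5, 15.1 and 1.1 on WT HFD and Gbp2 93.5, 51 and 38.3, in both cases below every AIM-KO HFD array. Rad51b read 301, 182 and 141 on WT HFD, within the AIM-KO range for replicate 1 alone, and Col3a1 read 699.8, 739.9 and 462, which overlapped the AIM-KO arrays. The tests of the difference gave 0.63 ± 0.57 for Lcn2 (adjusted p = 0.78) and 1.88 ± 0.61 for Mmp12 (adjusted p = 0.37). They gave 0.90 ± 0.50 for Gbp2 (adjusted p = 0.60) and 1.61 ± 0.45 for Rad51b (adjusted p = 0.31). None of these was shown to differ, nor were Cidea, Ccl2 and Col3a1, since Hsd3b2 alone was called.

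List by list the AIM-KO and WT values stood side by side as follows. Lipid droplet genes had a median of 1.0 in AIM-KO and 0.82 in WT, with 12 and 9 of 19 higher. Recruited macrophage markers had 1.23 and 0.72, with 20 and 11 of 26 higher, and interferon-induced genes 0.61 and 0.25, with 18 and 8 of 35. The matrix list had 28 and 16 of 44 higher, the injury list 16 and 6 of 28, and NRF2 targets 8 and 0 of 18. On the lower side the urea cycle and amino acid list had 23 and 2 of 34, hepatocyte markers 13 and 1 of 21, respiratory chain subunits 17 and 1 of 45, male-biased genes 12 and 6 of 16. Over all genes 11.2% were higher and 6.76% lower in AIM-KO, against 3.5% and 1.63% in WT. Quantile normalization gave 6 lower hepatocyte markers and 7 lower respiratory chain subunits in AIM-KO. As deposited, genes with a mean intensity over 5000 had a median change of -0.31 in AIM-KO and -0.11 in WT. Cell cycle genes had 18 and 13 of 42 higher, with medians of 1.10 and 0.86. Beyond Hsd3b2 no member of any list passed the test of the difference between the genotypes. An unadjusted p under 0.05 for the difference was seen in 9.43% of all genes. The lists with the highest shares were male-biased genes (8 of 16), urea cycle and amino acid genes (12 of 34), bile acid genes (7 of 21), conjugating enzymes (10 of 30), NRF2 targets (5 of 18), fatty acid uptake (4 of 15) and fatty acid synthesis (6 of 23), ranked after the values were seen.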

How the data were processed

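Total RNA of 18 mouse liver samples was read on Affymetrix Mouse Genome 430 2.0 arrays. The deposited values are linear intensities per probe set, made by the authors with MAS5 per the submitters' processing notes. Its version was not given in the sources used here. Each array's trimmed mean was 100.0 when the highest and lowest 2% were left out. Here 3.3 (the 20th percentile) was added to each intensity before log2, so that changes of dim genes are understated.

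Probe sets above the 40th percentile of an array on at least 3 arrays were kept (26674), named through GEO's platform annotation with symbols updated by gene ID, and the brightest per gene was used, giving 14694 genes. Of 45101 probe sets 34945 named 1 gene, 932 several and 9160 none. limma 3.58.1 in R 4.3.3 fitted 6 group means over all 18 arrays (eBayes with trend, moderated and two-sided), with Benjamini-Hochberg adjustment over all genes and a threshold of 0.05. The same fit tested the difference of the AIM-KO and WT diet effects. The fit was tested on simulated data.

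Named genes are Cd5l, the 20 largest called rises and falls whose arrays did not overlap, up to 6 called members of each of 45 lists (or, for a list with no call, its member of lowest p), defining cell type markers by their level, and called differences. The comparison and lists were chosen with earlier results of these data known. A list is described by its counts and median beside all genes, with no test of the list. Alternatives were other pseudocounts, filters, normalization, probe set rule, variance trend, array weights, replicate block, arrays in the fit, an actin covariate, a minimum fold and leaving out each array. Promoters are from RefSeq, and 11771 tested genes had an entry among those searched. The labels name no batch, and no pair of arrays was identical.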

Additional observations from a re-analysis of the deposited data

Results flagged for a closer look

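The diet effect on Hsd3b2, a steroid dehydrogenase gene, differed between the genotypes by the test of the difference itself, at -2.38 on the log2 scale (AIM-KO minus WT, adjusted p = 0.0198). Its arrays, its value without each array and the settings that end this call are given in the report. The labels do not say how the allele was made. Loss of AIM and other differences between the genotypes at this gene therefore cannot be told apart.

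Of 5969 probe sets that name no gene or several genes and therefore entered no comparison above, 280 were called between the AIM-KO diets in a fit of their own (4.69%), 167 higher and 113 lower. Over named genes the share was 18%. Which transcripts they read is not known here.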

How the results depend on the processing

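The AIM-KO count of 2645 calls was 4229 with array weights (2570 higher, 1659 lower) and 281 with a minimum fold of 1.5 (222 higher, 59 lower). Leaving out 1 array at a time gave 1696 to 2702 calls, 1089 to 1676 higher and 607 to 1026 lower. The lowest counts came without AIM-KO HFD replicate 1, and replicate 2 came next with 1754 calls, 611 of them lower. The WT count of 753 was 1314 with array weights, 66 with the minimum fold and 334 to 935 with 1 array left out, lowest without WT HFD replicate 1. The single call of the difference became 19 with array weights and 0 without a variance trend, with only the groups compared, without the 20 week groups and with the minimum fold, and was 0 to 23 with 1 array left out.

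Replicate numbers did not pair the AIM-KO samples, since deviations of same-numbered arrays correlated at 0.06, -0.01 and 0.04. With the replicate block the counts were 2761 in AIM-KO, 846 in WT and 2 for the difference, Hsd3b2 and the major urinary protein gene Mup10.

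Quantile normalization gave 2402 calls (1460 higher, 942 lower) and turned the sign of 2 named genes that had been called, Apoa1 to 0.087 (adjusted p = 0.43) and Car3 to 0.021 (adjusted p = 0.88). Under it the higher calls went from 10 to 8 among chemokines and cytokines. They went from 5 to 4 among T and NK cell markers and from 8 to 6 among endothelial markers. No other setting turned a called named gene, whereas uncalled ones near 0 changed sign under several settings. The cause of these shifts was not tested. The array series gives no detection calls, and changes of dim genes are understated on this scale.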

Other observations

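Some of the largest changes after 12 weeks of high-fat diet in AIM-KO livers belonged to genes of no list. Egfr, the receptor of epidermal growth factor, read 2793, 2551 and 2568 on chow and 398, 344 and 643 on HFD (-2.56 ± 0.30, adjusted p = 1.6e-05). Etnppl, which breaks down phosphoethanolamine, fell from 2578, 1888 and 1862 to 249, 210.5 and 467 (-2.83 ± 0.34, adjusted p = 2.3e-05), and the glycine acyltransferase relative Keg1 from 2452, 2663 and 3319 to 350.4, 512 and 724 (-2.45 ± 0.26, adjusted p = 5.8e-06). The organic anion transporter gene Slc22a7 read 122, 557 and 479.5 on chow, where replicate 1 was the lowest, and 54.7, 59.5 and 56.8 on HFD (-2.42 ± 0.44, adjusted p = 0.00087). Its relatives Slc22a27, from 0.5, 10 and 13.3 to 164, 166 and 210.4, and Slc22a29, from 17, 12.4 and 33.9 to 405, 376 and 443, rose by 4.27 ± 0.50 and 4.17 ± 0.40, and probes may not tell these relatives apart. Members of 1 transporter family thus changed in both directions.

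Ubd, a ubiquitin-like protein induced by inflammatory cytokines, rose from 7.8, 5.7 and 18.9 to 222, 242 and 146 (3.95 ± 0.49, adjusted p = 2.4e-05), and the interferon-related gene Ifi27l2b from 21.2, 18.6 and 32.4 to 346, 434 and 319.6 (3.78 ± 0.32, adjusted p = 7.1e-07). The defensin gene Defb1 rose from 23.4, 23.1 and 16.5 to 319, 267 and 225 (3.49 ± 0.37, adjusted p = 6.1e-06) and the Toll-like receptor gene Tlr12 from 1.3, 1.7 and 3.8 to 95.5, 88.4 and 48.2 (3.83 ± 0.36, adjusted p = 1.8e-06). All 4 genes were chosen for AIM-KO arrays that do not overlap between the diets. In WT they rose by 2.43, 2.92, 2.49 and 2.97, and none passed the test of the difference.

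Tubb2b, a beta-tubulin, read 7.3, 0.1 and 0.4 on chow and 80.8, 112 and 19 on HFD, where replicate 3 was the lowest (3.55 ± 0.77, adjusted p = 0.0032). On WT HFD arrays it read 13.7, 0.7 and 7.6, with no call (0.56 ± 0.77, adjusted p = 0.76), and the difference was 2.99 ± 1.08 (adjusted p = 0.40).

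Red cell markers had 2 of 4 tested genes lower and none higher. Alas2, the haem synthesis enzyme of red cell precursors, read 392, 388 and 301 on chow and 148, 143 and 141 on HFD (-1.29 ± 0.24, adjusted p = 0.0012), and Klf1, their transcription factor, fell from 56.9, 59.8 and 37 to 24.8, 22.8 and 28.4 (-0.91 ± 0.23, adjusted p = 0.011). The haemoglobin gene Hba-a1 was dim at 4.3, 12.3 and 0.9 and 10.9, 7.4 and 11.3, and blood left in the tissue was not tested. Of 9 pancreas and gut markers 1 was higher and 1 lower, near the 11.2% and 6.76% of all genes. The fatty acid binding gene Fabp2, which liver also expresses, rose from 1226, 1435 and 1207 to 3117, 3149.9 and 3625 (1.35 ± 0.11, adjusted p = 4.6e-07), and the elastase gene Cela1 fell from 404, 660.2 and 381 to 272, 263 and 218 (-0.89 ± 0.23, adjusted p = 0.0099). None of 6 muscle and kidney markers was called (median 0.29).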
